A study of Mus musculus with 30 samples.

Results

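The genes described here take glucose into the cell, break it down to lactate and carry the lactate out, together with the factor that switches many of them on under low oxygen. They are Slc2a1, Slc2a3, Hk1, Hk2, Pfkp, Pfkfb3, Pgk1, Ldha, Slc16a3 and Hif1a, 10 of the 22121 gene symbols on the array. They were taken by name from a fixed list, which was chosen with earlier results of these data known. The Affymetrix Mouse430_2 array carries 25 probe sets for them, of 45037 probe sets once its controls are set aside. All probe sets but 1 passed the filter on dim values, so 24 were tested among 36029. Where a gene had several probe sets, the one with the highest mean over all arrays among those that name this gene alone stood for it. The main differences of the others are given with it.

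Whole back skin came from female 129–C57BL/6 mice aged 8 to 12 weeks, either wild type (WT) or D6-deficient, on 30 arrays of 1 mouse each. D6, encoded by Ccbp2, is an atypical receptor that takes up and degrades inflammatory CC chemokines. The shaved back was painted 3 times, 24 h apart, with the phorbol ester TPA (50 uM), a chemical irritant, and skin was taken 1, 2, 4 or 6 days later. Control skin, called day 0 here, is untreated in the sample titles and received the acetone vehicle according to the sample descriptions and the methods. The 10 groups of genotype and day held 3 mice each: WT and D6-deficient mice without TPA on day 0, and WT and D6-deficient mice with TPA on days 1, 2, 4 and 6. Because the RNA came from whole skin, fewer cells of a type and less RNA per cell cannot be told apart.

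Glucose enters most cells through facilitative carriers of the SLC2A family, of which Slc2a1 (GLUT1) serves keratinocytes and many dividing cells, and Slc2a3 (GLUT3) is a high-affinity carrier known from neurons and leukocytes. Hexokinases trap the sugar as glucose 6-phosphate, phosphofructokinase commits it to glycolysis, phosphoglycerate kinase makes ATP, and lactate dehydrogenase A turns pyruvate into lactate, which Slc16a3 (MCT4) exports with a proton. HIF-1, a dimer of HIF-1α and ARNT, binds core letters such as ACGTG in the promoters of many of these genes. Neutrophils and activated macrophages are known to lean on glycolysis, as keratinocytes do when they divide.

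The letters ACGTG were looked for in the 250 bases before each annotated start (RefSeq, GRCm38.p6). On the other strand they read CACGT, and both overlap where the letters read CACGTG. No other letters were searched for. Of 32851 promoters of this length, 16.6% held the motif. The table holds 12 promoters of 9 member genes, and 8 of the 12 held it: those of Slc2a1, Hk2, Pgk1, Slc16a3 and Hif1a, both of Pfkfb3 and 1 of 2 of Ldha, whereas those of Hk1 and Pfkp held none in this window. A match describes letters and does not show binding. Promoters of 3 genes are printed 5′ to 3′ in the direction of the gene, with the motif in capitals, because their genes took different courses after TPA. By reference probe set, Slc2a1 rose early, Pgk1 rose late and Hk2 fell. They are Slc2a1 at chr4:119108495-119108744 on the plus strand, Pgk1 at chrX:106186850-106187099 on the plus strand and Hk2 at chr6:82774455-82774704 on the minus strand.
Slc2a1: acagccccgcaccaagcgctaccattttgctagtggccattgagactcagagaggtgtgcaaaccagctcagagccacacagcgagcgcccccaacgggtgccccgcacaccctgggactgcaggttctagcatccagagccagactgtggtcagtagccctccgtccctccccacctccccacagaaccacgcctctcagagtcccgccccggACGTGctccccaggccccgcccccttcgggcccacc
Pgk1: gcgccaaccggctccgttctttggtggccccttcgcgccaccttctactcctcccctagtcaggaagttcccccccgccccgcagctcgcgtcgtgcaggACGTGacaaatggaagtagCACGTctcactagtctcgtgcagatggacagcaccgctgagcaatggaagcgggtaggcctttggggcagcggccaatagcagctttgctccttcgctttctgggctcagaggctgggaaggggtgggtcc
Hk2: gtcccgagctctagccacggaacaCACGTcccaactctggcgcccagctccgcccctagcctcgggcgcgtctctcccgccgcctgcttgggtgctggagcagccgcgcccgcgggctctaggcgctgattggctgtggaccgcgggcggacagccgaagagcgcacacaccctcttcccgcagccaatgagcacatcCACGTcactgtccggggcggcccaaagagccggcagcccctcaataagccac
The match in Slc2a1 began 36 bases before the start. Those in Pgk1 began 150 and 131 bases before it, and those in Hk2 226 and 52 bases before it. In Slc16a3, where a longer annotated transcript begins further out and the sequence is not shown, the letters ACGTG began 27 and 14 bases before the start. Hk2, Slc2a1 and Pgk1 all held these letters, and the part of the letters in their courses was not tested.

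The arrays were alike in scale, with medians of 5.64 to 5.80 on the log2 scale, which follows from the quantile normalization within RMA. Of 3 probe sets of Ccbp2, 1422112_at separated the genotypes as labelled, at 4.15 to 5.76 on the WT arrays and 3.30 to 3.86 on the D6-deficient arrays. The other 2 overlapped between the genotypes, 1422111_at at 5.14 to 6.26 in WT and 4.55 to 5.42 in D6-deficient mice and 1437937_at at 6.69 to 8.54 in WT and 6.59 to 8.09 in D6-deficient mice, and which of them lies in the deleted part is not given in the sources used here. Some days stood apart in their cell markers, in both genotypes. The summed level of 5 hair follicle markers (Krt25, Krt27, Krt71, Krt73 and Tchh) was 11.24 to 15.51 on days 1 and 6 but 6.96 to 8.45 on days 0, 2 and 4, and all 5 passed the test against day 0 on days 1 and 6. Skeletal muscle markers fell on every day, 7 of 7 in both genotypes, from 16.42 to 16.74 on day 0 to 14.45 to 15.90 afterwards. The summed level of 8 neutrophil markers (Csf3r, Cxcr2, S100a8, S100a9, Mpo, Camp, Ltf and Ngp) lay at 9.75 to 13.88 on day 0 and 13.60 to 14.59 on day 1. On day 1, 2 of 8 had risen in WT and 6 of 8 in D6-deficient skin. The summed level stood at 15.22 to 15.78 on days 2 and 4 and at 12.79 to 14.50 on day 6. Each summed level adds linear intensities and so follows the brightest genes of its list, and it is not a count of cells. By summed level, days 1 and 6 thus shared high hair follicle markers, days 2 and 4 had the highest neutrophil markers, and day 0 had the highest muscle markers.

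**Figure D1:**
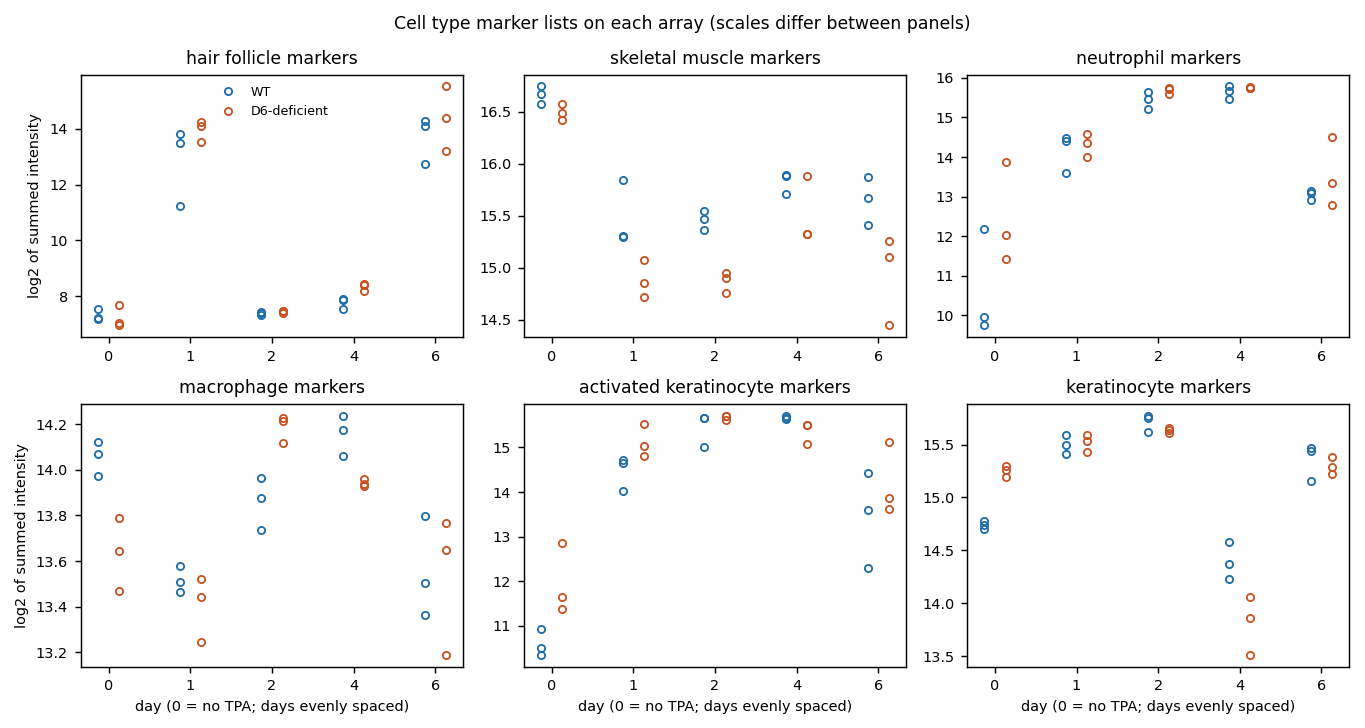
Summed log2 intensity of 6 marker lists on each of the 30 arrays, by day, with WT in blue and D6-deficient in orange and 1 open point per mouse; the vertical scales differ. Hair follicle markers stand at 11.24 to 15.51 on days 1 and 6 and at 6.96 to 8.45 on the other days, while neutrophil markers are highest on days 2 and 4.

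After TPA, members changed in both directions, and the most genes rose on day 4. The only groups without TPA were those of day 0, so TPA, day and tissue makeup cannot be told apart. In WT skin on that day 5 of 10 genes rose (Slc2a1, Slc2a3, Pgk1, Slc16a3 and Hif1a) and 1 fell (Pfkfb3), at an adjusted p under 0.05 in limma, when 17.3% of all probe sets tested rose and 21.8% fell. In D6-deficient skin on day 4 the same 5 genes rose and Hk2 fell, against 18.8% and 22.4% of all probe sets. On day 2, 2 genes rose in WT skin (Slc2a1 and Hif1a) and 2 fell (Hk2 and Ldha), beside 11% and 15% of all probe sets. D6-deficient skin that day had 4 genes up (Slc2a1, Slc2a3, Slc16a3 and Hif1a) and 1 down (Hk2), beside 17.5% and 20.6%. No member rose on day 1 or day 6 by its reference probe set in either genotype, although 11.4% of all probe sets rose on day 1 and 10.2% on day 6 in WT skin, and 18.2% and 16% in D6-deficient skin. On day 1, 3 fell in WT skin (Ldha, Slc16a3 and Pfkfb3; 12.7% of all probe sets fell) and 4 in D6-deficient skin (Hk1, Pgk1, Ldha and Slc16a3; 18.1% fell). On day 6, 3 fell in WT skin (Hk2, Ldha and Slc16a3; 11.9%) and 4 in D6-deficient skin (Hk1, Hk2, Ldha and Slc16a3; 15.7%). Over the 10 genes the median change on day 4 was 0.41 for WT mice and 0.32 for D6-deficient mice, beside 0.01 for all probe sets of either, and on day 1 it was -0.15 and -0.30.

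**Figure D2:**
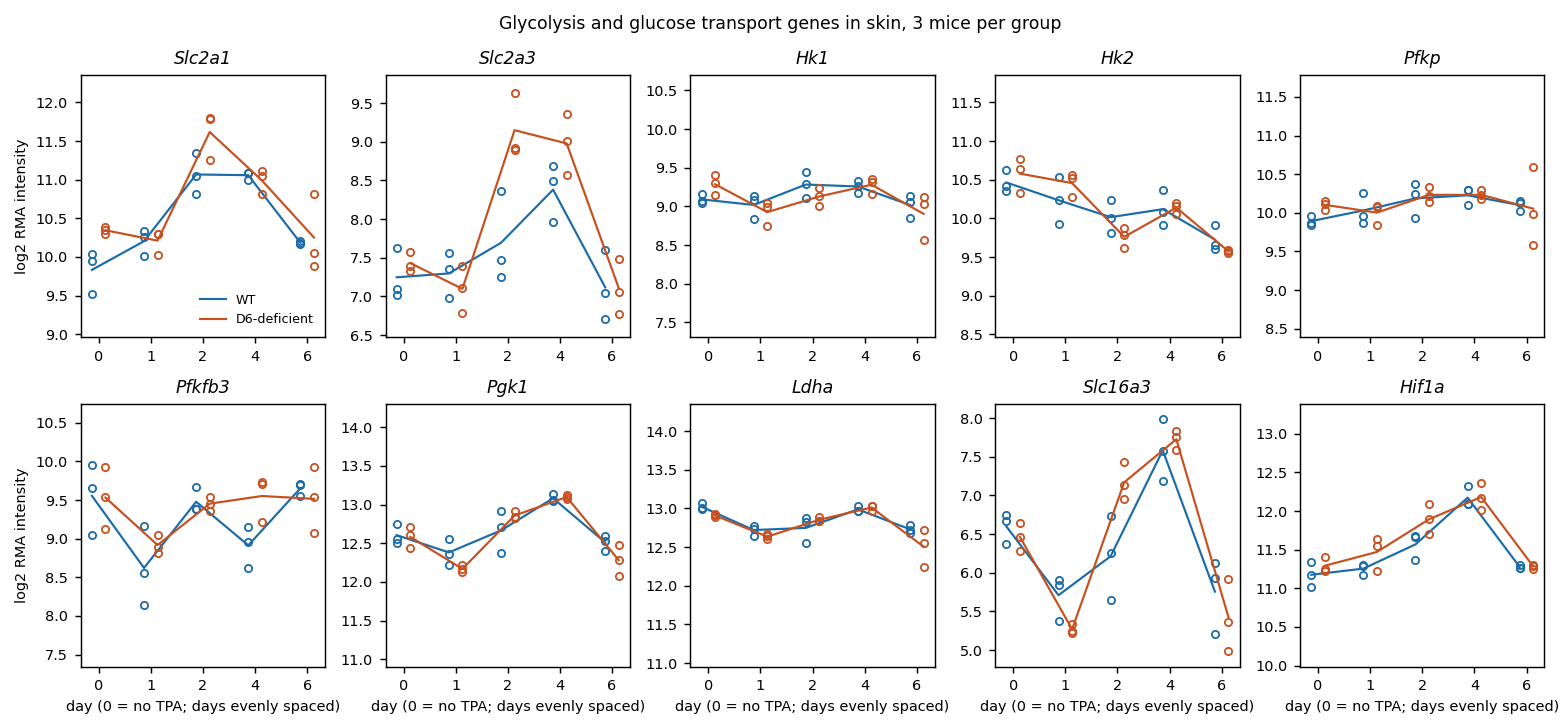
Log2 RMA intensity of the reference probe set of each gene by day, with 1 open point per mouse and lines through the group means, WT in blue and D6-deficient in orange; each panel has its own range. Slc2a1, Slc2a3, Slc16a3, Pgk1 and Hif1a are high on days 2 or 4 and lower again on day 6, when Slc2a1 in WT skin still lies above its day 0 points, whereas Hk2 is lowest on day 6.

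Slc2a1 (chr4:119108745-119137330), the main glucose carrier of keratinocytes, rose by day 2 in both genotypes. Its log2 intensities in WT skin were 9.52, 9.94 and 10.04 on day 0 and 10.81, 11.04 and 11.35 on day 2, with no overlap between these groups. They were 11.00, 11.09 and 11.09 on day 4 and 10.17, 10.18 and 10.21 on day 6, still above every day 0 value, although that change of 0.35 did not pass (adjusted p = 0.19). The WT change was 1.23 ± 0.19 (SE), adjusted p = 3.2e-05 on day 2, a 2.35-fold rise, and 1.23 ± 0.19 (SE), adjusted p = 1.4e-05 on day 4. D6-deficient skin held 10.30, 10.35 and 10.39 on day 0, and reached 11.26, 11.79 and 11.80 on day 2, which gave a change of 1.27 ± 0.19 (SE), adjusted p = 9.6e-06. By day 4 it stood at 10.81, 11.04 and 11.12, a change of 0.64 ± 0.19 (SE), adjusted p = 0.0075. Both other probe sets of Slc2a1 followed this course, with changes of 1.51 and 1.54 in WT and 1.40 and 1.53 in D6-deficient skin on day 2. In the order of group means, D6-deficient day 2 stood first at 11.62 ± 0.31 (SD, n = 3), then WT day 2, WT day 4 and D6-deficient day 4 between 10.99 and 11.07, which did not differ beyond their spread, and WT day 0 stood last at 9.83 ± 0.28. Markers of activated keratinocytes (Krt6a, Krt6b, Krt16 and Krt17) rose along with it, 4 of 4 in both genotypes on each day, from 10.36 to 12.86 on day 0 to 15.01 to 15.71 on day 2. The keratinocyte markers Krt5, Krt14, Krt1 and Krt10 did otherwise: on day 2, 3 rose in WT skin, 2 rose in D6-deficient skin and 0 fell in either, but on day 4, 2 fell and 1 rose in WT skin (median -1.15) and 3 fell and 0 rose in D6-deficient skin (median -2.80). The part of either list in the course of Slc2a1 was not tested.

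Slc2a3 (chr6:122727809-122802363), the high-affinity carrier, rose on day 4 in both genotypes. On day 2 it passed in D6-deficient but not in WT skin, and the test of that difference is given with the genotypes. In WT skin its log2 intensities were 7.01, 7.10 and 7.63 on day 0, 7.24, 7.47 and 8.36 on day 2 and 7.96, 8.50 and 8.69 on day 4. The day 2 values overlapped those of day 0, and 1 mouse stood above the other 2. The WT change was 0.45 ± 0.29 (SE) on day 2, which did not pass (adjusted p = 0.28), and 1.13 ± 0.29 (SE), adjusted p = 0.0031 on day 4. In D6-deficient skin the values were 7.33, 7.39 and 7.57 on day 0, 8.89, 8.92 and 9.63 on day 2 and 8.58, 9.01 and 9.35 on day 4, so that every mouse on days 2 and 4 lay above every mouse on day 0. The changes were 1.72 ± 0.29 (SE), adjusted p = 5.1e-05 on day 2, a 3.29-fold rise and the one change of a member past the 3-fold threshold of the study against day 0 by its reference probe set, and 1.55 ± 0.29 (SE), adjusted p = 0.00013 on day 4. Of all probe sets 3.27% passed that threshold on day 2. By day 6 the levels had returned to 6.71, 7.04 and 7.60 in WT and 6.77, 7.06 and 7.49 in D6-deficient skin. Probe set 1455898_x_at gave 1.76 and 1.08 for D6-deficient day 2 and WT day 4, probe set 1421924_at gave 0.72 and 0.65, and the fourth was too dim to test. On day 2, 7 of 8 neutrophil markers had risen and 0 had fallen in D6-deficient skin, and 4 had risen and 1 had fallen in WT skin. Of 5 macrophage markers 3 had risen and 0 fallen in D6-deficient skin on day 2, 1 had risen and 1 fallen in WT skin, and 3 had risen and 2 fallen on day 4 in either. Their summed level went from 13.47 to 13.79 on day 0 to 14.12 to 14.23 on day 2 and 13.93 to 13.96 on day 4 in D6-deficient skin, but from 13.97 to 14.12 to 13.74 to 13.96 and 14.06 to 14.24 in WT skin. Their part in the level of Slc2a3 was not tested.

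Slc16a3 (chr11:120948484-120959000), the lactate exporter, moved in opposite directions over the course: it fell on days 1 and 6 and rose on day 4. The WT log2 intensities were 6.37, 6.68 and 6.75 on day 0, 5.37, 5.85 and 5.91 on day 1, 7.19, 7.57 and 7.99 on day 4 and 5.21, 5.93 and 6.13 on day 6. Day 4 lay wholly above day 0, and days 1 and 6 wholly below it. The changes in WT skin were -0.89 ± 0.26 (SE), adjusted p = 0.014 on day 1, 0.99 ± 0.26 (SE), adjusted p = 0.0038 on day 4 and -0.84 ± 0.26 (SE), adjusted p = 0.021 on day 6. D6-deficient skin held 6.28, 6.47 and 6.64 on day 0, 5.22, 5.24 and 5.34 on day 1, 7.59, 7.76 and 7.84 on day 4 and 4.99, 5.37 and 5.92 on day 6. Its changes on those days were -1.19 ± 0.26 (SE), adjusted p = 0.00088, then 1.26 ± 0.26 (SE), adjusted p = 0.00034, and then -1.04 ± 0.26 (SE), adjusted p = 0.0036. On day 2, when WT skin stood at 5.65, 6.26 and 6.73 and had not passed (-0.38, adjusted p = 0.3), D6-deficient skin was already up at 6.95, 7.13 and 7.43, by 0.71 ± 0.26 (SE), adjusted p = 0.033. The days of the falls were those with a high summed level of hair follicle markers. The days of the rises were those with the highest summed level of neutrophil markers, although that level was also higher on day 1 than on day 0, in the ranges given above. The part of either list in Slc16a3 was not tested. Slc16a3 in WT skin on day 1 lost its call without WT day 0 replicate 1, or without WT day 1 replicate 1 (adjusted p = 0.059 to 0.086, change -0.81 to -0.72). Slc16a3 in WT skin on day 6 lost its call without WT day 0 replicate 1 or 3, or without WT day 6 replicate 2 (adjusted p = 0.059 to 0.18, change -0.80 to -0.57). Slc16a3 in D6-deficient skin on day 2 lost its call without D6-deficient day 0 replicate 2 or 3, or without D6-deficient day 2 replicate 2 or 3 (adjusted p = 0.062 to 0.14, change 0.58 to 0.73).

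Among the hexokinases, Hk2 (chr6:82725025-82774454), the insulin-responsive form of muscle and fat, fell, while Hk1 (chr10:62268855-62379920), the form of most cell types, moved little. Hk2 lay at 10.36, 10.41 and 10.62 on day 0, 9.81, 10.001 and 10.24 on day 2 and 9.61, 9.65 and 9.91 on day 6 in WT skin. In D6-deficient skin it lay at 10.33, 10.64 and 10.77, 9.61, 9.79 and 9.88 and 9.55, 9.58 and 9.58 on the same days. Day 6 was below day 0 in every mouse of both genotypes. The changes on day 6 were -0.74 ± 0.15 (SE), adjusted p = 0.00096 in WT and -1.01 ± 0.15 (SE), adjusted p = 2.2e-05 in D6-deficient skin, a 2.01-fold fall in the latter, and those on day 2 were -0.45 and -0.82 (adjusted p = 0.026 and 0.00011). On day 4 the fall passed in D6-deficient skin (-0.44, adjusted p = 0.019) but not in WT skin (-0.35, adjusted p = 0.067), and on day 1 in neither. All 7 skeletal muscle markers fell on these days too, and on day 1 as well, when Hk2 did not pass; their part in the fall was not tested. Hk1 passed in D6-deficient skin on day 1 (-0.36, adjusted p = 0.032) and day 6 (-0.38, adjusted p = 0.027) and in WT skin on no day, with changes of -0.07 to 0.19. Its second probe set, 1420901_a_at, instead rose in WT skin by 0.56 on day 2 and 0.54 on day 4. In D6-deficient skin 1420901_a_at did not fall, with group means of 7.64 on day 0, 7.71 on day 1 and 7.76 on day 6. The course of Hk1 thus differs between its probe sets in both genotypes, and the falls named here are those of the reference probe set alone. Hk2 in WT skin on day 2 lost its call without WT day 0 replicate 3, or without WT day 2 replicate 2 or 3 (adjusted p = 0.07 to 0.14, change -0.44 to -0.34). Hk2 in D6-deficient skin on day 4 lost its call without D6-deficient day 0 replicate 1 or 2, or without D6-deficient day 4 replicate 2 (adjusted p = 0.06 to 0.1, change -0.41 to -0.35). Hk1 in D6-deficient skin on day 1 lost its call without D6-deficient day 0 replicate 1 or 2, or without D6-deficient day 1 replicate 2 (adjusted p = 0.072 to 0.16, change -0.36 to -0.27). Hk1 in D6-deficient skin on day 6 lost its call without D6-deficient day 0 replicate 1 or 2, or without D6-deficient day 6 replicate 2 (adjusted p = 0.063 to 0.23, change -0.38 to -0.21). The third, 1436822_x_at, is listed under other symbols too, a ribosomal protein gene among them, and is left aside as uncertain.

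At the step that commits sugar to glycolysis, Pfkp (chr13:6579874-6649060), the platelet-type phosphofructokinase, passed on no day by its reference probe set. Its changes against day 0 lay between -0.10 and 0.33, and its group means between 9.89 and 10.23. The other probe sets of Pfkp went 2 ways: 1430634_a_at rose in WT skin by 0.96 to 1.29 and in D6-deficient skin by 0.91 to 1.40, passing on all 4 days in both, whereas 1437759_at fell in D6-deficient skin on day 1 (-1.17, adjusted p = 0.01) and day 6 (-0.97, adjusted p = 0.034). No direction is therefore given for Pfkp. Pfkfb3 (chr2:11471430-11554071) makes fructose 2,6-bisphosphate, the activator of phosphofructokinase. In WT skin it stood at 9.05, 9.66 and 9.96 on day 0, 8.14, 8.56 and 9.17 on day 1 and 8.63, 8.96 and 9.16 on day 4, and the changes were -0.93 ± 0.25 (SE), adjusted p = 0.0073, and -0.64 ± 0.25 (SE), adjusted p = 0.042, although 1 mouse overlapped the day 0 range each time. D6-deficient skin gave -0.61 on day 1 (adjusted p = 0.054) and 0.02 on day 4 (adjusted p = 0.96). Here too the second probe set differed, since 1456676_a_at rose in D6-deficient skin by 0.77, 0.86 and 0.72 on days 2, 4 and 6 and passed on no day in WT skin. Pfkfb3 in WT skin on day 1 lost its call without WT day 0 replicate 3, or without WT day 1 replicate 1 (adjusted p = 0.054 to 0.069, change -0.73 to -0.69). Pfkfb3 in WT skin on day 4 lost its call without WT day 0 replicate 1 or 3, or without WT day 4 replicate 2 or 3 (adjusted p = 0.069 to 0.22, change -0.66 to -0.44).

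Lower in the pathway, Pgk1 (chrX:106187100-106203699), which makes ATP from 1,3-bisphosphoglycerate, rose on day 4 by a small but even amount. WT skin went from 12.51, 12.56 and 12.75 on day 0 to 13.04, 13.07 and 13.14 on day 4, and D6-deficient skin from 12.44, 12.61 and 12.70 to 13.07, 13.10 and 13.12. The day 4 mice of both genotypes lay close together, from 13.04 to 13.14, and above all day 0 mice. The changes were 0.48 ± 0.12 (SE), adjusted p = 0.0025 in WT and 0.52 ± 0.12 (SE), adjusted p = 0.0012 in D6-deficient skin, and the 2 further probe sets gave 0.39 to 0.52. Of these, 1438640_x_at had already passed upwards in D6-deficient skin on day 2, when the reference probe set had not. Its group means were 12.33 on day 0 and 12.64 on day 2, and this call was lost under some settings. On day 1 Pgk1 had fallen in D6-deficient skin (-0.41 ± 0.12 (SE), adjusted p = 0.0084), and the WT value of -0.22 did not pass (adjusted p = 0.19). Ldha (chr7:46842274-46855627), which reduces pyruvate to lactate, did not rise on any day. It lay at 13.00, 13.01 and 13.06 on day 0 and 12.96, 12.97 and 13.04 on day 4 in WT skin, a change of -0.03 (95% interval -0.23 to 0.16), and the D6-deficient change on day 4 was 0.10 (95% interval -0.09 to 0.30). It fell on day 1, with a change of -0.30 ± 0.10 (SE), adjusted p = 0.023 in WT and -0.27 ± 0.10 (SE), adjusted p = 0.028 in D6-deficient skin, and on day 6, with -0.29 ± 0.10 (SE), adjusted p = 0.03 and -0.40 ± 0.10 (SE), adjusted p = 0.0024. On day 2 it fell in WT skin (-0.27, adjusted p = 0.036) and did not pass in D6-deficient skin (-0.05, adjusted p = 0.7). The exporter of lactate thus rose on day 4, when the change of the enzyme that makes it lay within the intervals given. Ldha in WT skin on day 1 lost its call without WT day 0 replicate 3, or without WT day 1 replicate 1 or 3 (adjusted p = 0.053 to 0.099, change -0.31 to -0.26). Ldha in WT skin on day 2 lost its call without WT day 0 replicate 1, 2 or 3, or without WT day 2 replicate 3 (adjusted p = 0.065 to 0.23, change -0.29 to -0.17). Ldha in WT skin on day 6 lost its call without WT day 0 replicate 1, 2 or 3, or without WT day 6 replicate 2 or 3 (adjusted p = 0.06 to 0.11, change -0.30 to -0.27). Ldha in D6-deficient skin on day 1 lost its call without D6-deficient day 0 replicate 1, 2 or 3, or without D6-deficient day 1 replicate 1 or 2 (adjusted p = 0.051 to 0.081, change -0.29 to -0.26).

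Hif1a (chr12:73901324-73947554), the oxygen-regulated subunit of HIF-1, rose on days 2 and 4 in both genotypes. WT skin held 11.01, 11.17 and 11.34 on day 0, 11.36, 11.67 and 11.67 on day 2, 12.09, 12.10 and 12.33 on day 4 and 11.26, 11.27 and 11.30 on day 6. D6-deficient skin held 11.23, 11.25 and 11.40, 11.70, 11.90 and 12.09, 12.02, 12.16 and 12.36 and 11.25, 11.29 and 11.31 on those days. Days 2 and 4 lay above day 0 in every mouse, and the day 6 mice lay between 11.25 and 11.31. The rise was 0.39 ± 0.12 (SE), adjusted p = 0.019 on day 2 and 1.00 ± 0.12 (SE), adjusted p = 7.8e-07 on day 4 in WT skin, and 0.60 ± 0.12 (SE), adjusted p = 0.00038 and 0.89 ± 0.12 (SE), adjusted p = 2.8e-06 in D6-deficient skin. The size depended on the probe set: 1448183_a_at gave 2.09 and 2.07 on day 4, and 1431981_at gave 0.89 and 0.81, but all 4 passed upwards on day 4 in both genotypes. On day 1 they disagreed: 1448183_a_at had risen by 0.75 ± 0.24 (SE), adjusted p = 0.024 in WT and 1.11 ± 0.24 (SE), adjusted p = 0.0009 for D6-deficient mice, and the others did not pass. That WT call was lost without WT day 0 replicate 1 or 3 or without WT day 1 replicate 3 (adjusted p = 0.063 to 0.092). On day 2, 1431981_at passed in neither genotype, with group means of 4.31 on day 0 and 4.73 on day 2 in WT and 4.37 and 4.62 in D6-deficient skin. On day 6, 1448183_a_at passed upwards in D6-deficient skin, with a group mean of 8.07 against 7.38 on day 0. That day 6 call was lost under some settings, and the other probe sets did not pass. HIF-1α is controlled mainly through the stability of its protein, which an array does not measure. Hif1a in WT skin on day 2 lost its call without WT day 0 replicate 2, or without WT day 2 replicate 1 or 2 (adjusted p = 0.078 to 0.1, change 0.31 to 0.34).

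**Figure D3:**
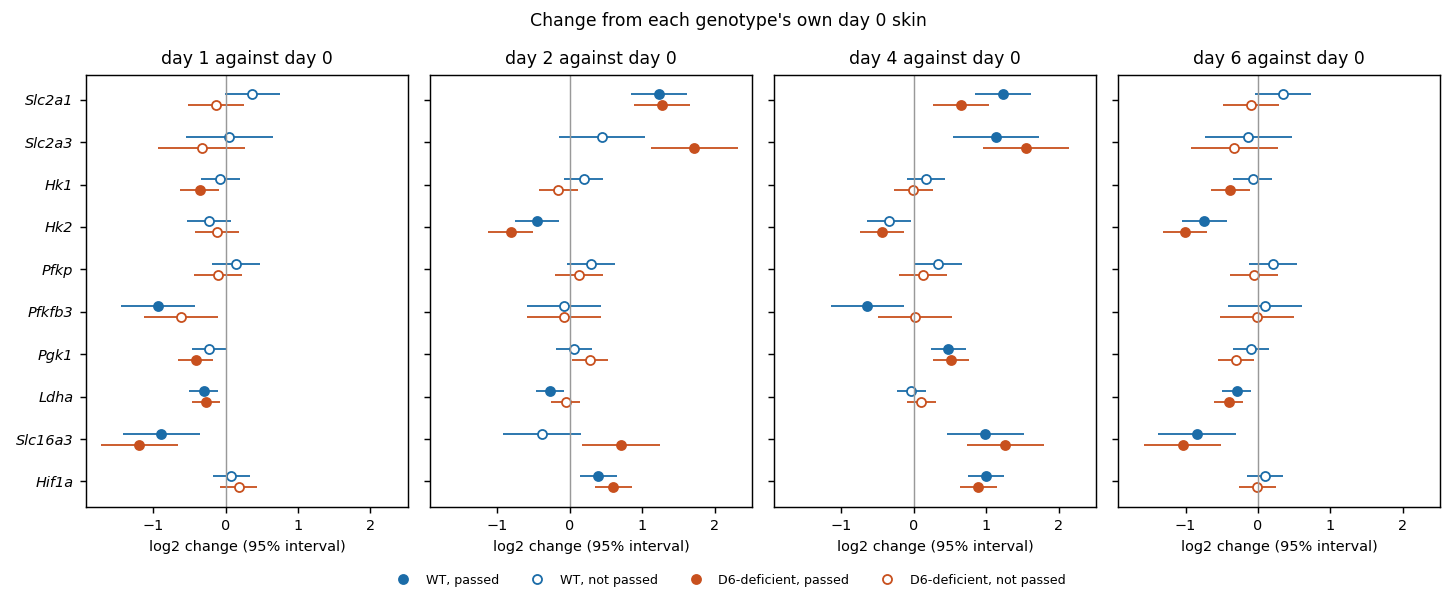
Log2 change of the reference probe set of each gene against day 0 of the same genotype on days 1, 2, 4 and 6, with 95% intervals; filled points passed at an adjusted p under 0.05 and open points did not. On day 4 the points of Slc2a1, Slc2a3, Pgk1, Slc16a3 and Hif1a lie to the right of 0 in both genotypes, and on days 1 and 6 no filled point does.

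Between day 4 and day 6 the genes that had risen came down. In WT skin 5 of 10 fell (Slc2a1, Slc2a3, Pgk1, Slc16a3 and Hif1a) and Pfkfb3 rose, against 10% and 12.1% of all probe sets. In D6-deficient skin 8 of 10 fell, all but Pfkp and Pfkfb3, against 14.5%, and none rose, against 16.8%. Slc16a3 fell furthest, with a change of -1.83 ± 0.26 (SE), adjusted p = 1.2e-05 in WT and -2.30 ± 0.26 (SE), adjusted p = 2.8e-07 in D6-deficient skin, 3.55-fold and 4.93-fold. Together with Slc2a3 in D6-deficient skin these falls passed the 3-fold threshold, as did 2.03% of all probe sets in WT and 3.13% in D6-deficient skin. Slc2a3 followed with -1.26 and -1.87, and Hif1a with -0.90 and -0.90. Of the genes, Hk2, Hk1 and Ldha passed in D6-deficient and not in WT skin, and the difference between the genotypes in this step was not tested. The same interval saw neutrophil markers fall (4 of 8 in WT and 5 of 8 in D6-deficient skin) and hair follicle markers rise, 5 of 5 in both. Of 7 skeletal muscle markers 4 fell in D6-deficient skin (median -0.63) and 0 in WT skin (median -0.18). The part of these markers in the falls was not tested. Hk1 in D6-deficient skin between days 4 and 6 lost its call without D6-deficient day 4 replicate 1 or 3, or without D6-deficient day 6 replicate 2 (adjusted p = 0.072 to 0.25, change -0.36 to -0.21). Pfkfb3 in WT skin between days 4 and 6 lost its call without WT day 4 replicate 2 or 3, or without WT day 6 replicate 1 or 3 (adjusted p = 0.057 to 0.16, change 0.59 to 0.76).

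Between the genotypes 2 of 10 genes passed on day 2, Slc2a3 and Slc16a3, when 4.45% of all probe sets passed. Slc2a3 was 2.74-fold higher in D6-deficient skin (1.46 ± 0.29 (SE), adjusted p = 0.0028), with 8.89, 8.92 and 9.63 against 7.24, 7.47 and 8.36 in WT skin and no overlap. Probe set 1455898_x_at of the same gene gave 1.45 ± 0.30 (SE), adjusted p = 0.0037, and these probe sets may share transcripts, so they are not independent. The dimmer 1421924_at gave 0.37 (95% interval -0.08 to 0.82, adjusted p = 0.46), which did not pass. Slc16a3 was 1.94-fold higher (0.96 ± 0.26 (SE), adjusted p = 0.031), also without overlap. The call for Slc16a3 was lost without D6-deficient day 2 replicate 2 or 3, or without WT day 2 replicate 1 or 3 (adjusted p = 0.08 to 0.22, change 0.67 to 0.98), whereas that for Slc2a3 kept an adjusted p of at most 0.036. In the samples of day 2, 5 of 8 neutrophil and 2 of 5 macrophage markers were higher in D6-deficient skin, with summed levels of 15.59 to 15.74 against 15.22 to 15.65 and 14.12 to 14.23 against 13.74 to 13.96, and 4 of 7 muscle markers were lower. Their part in these differences was not tested.

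For the other 8 genes the day 2 difference did not pass, which does not show that they were alike. Slc2a1 was higher by 0.55 (95% interval 0.16 to 0.94, adjusted p = 0.11) and Hif1a by 0.32 (0.07 to 0.58, adjusted p = 0.16). Hk2 stood at -0.25 (-0.56 to 0.05) and Pgk1 at 0.19 (-0.05 to 0.44). On days 0, 1, 4 and 6 limma passed 0 of 10 genes, with backgrounds of 1.57%, 0.0555%, 0.513% and 0.125%. At an unadjusted p under 0.05 there were 1, 0, 1 and 1 of 10 on these days, and the methods' t-test, unadjusted, passed 3, 0, 1 and 0. The gene of day 0 was Slc2a1, at 10.30, 10.35 and 10.39 in D6-deficient against 9.52, 9.94 and 10.04 in WT skin, a difference of 0.51 (95% interval 0.13 to 0.90, adjusted p = 0.18); on the same arrays 2 of 4 activated keratinocyte markers and 2 of 4 keratinocyte markers (Krt5, Krt14, Krt1 and Krt10) were higher in D6-deficient skin. Pfkfb3 was the gene of day 4 and Ldha that of day 6, with differences of 0.64 and -0.22.

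**Figure D4:**
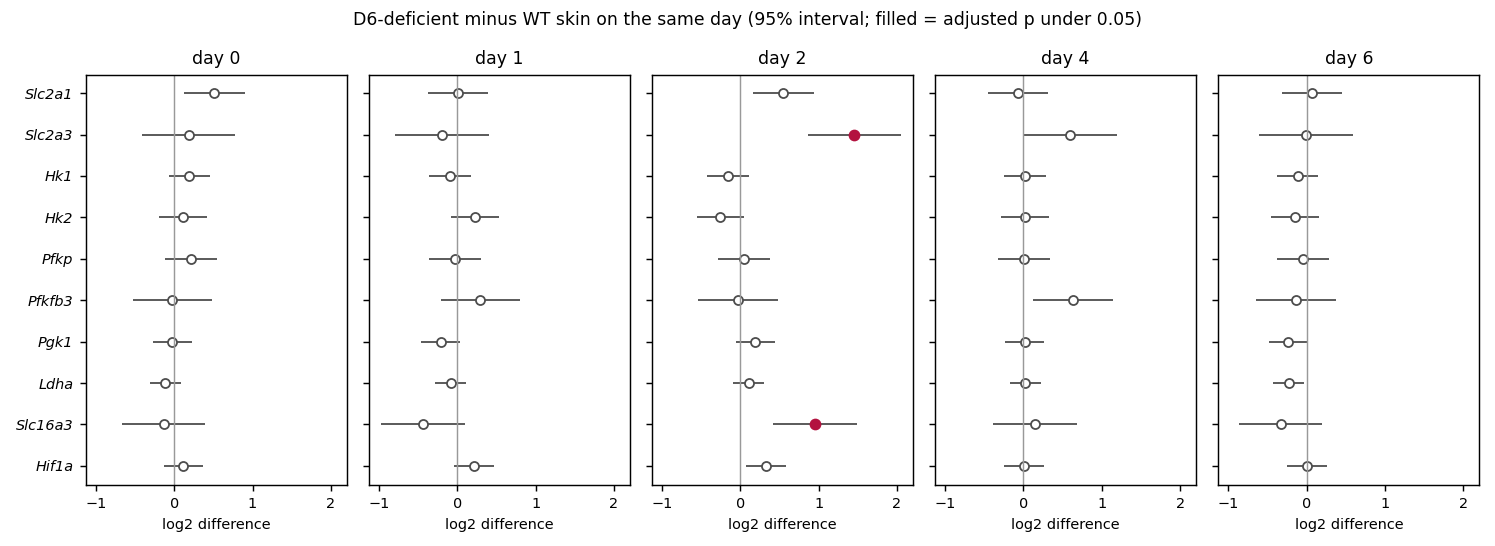
Log2 difference between D6-deficient and WT skin on the same day for the reference probe set of each gene, with 95% intervals; filled points passed at an adjusted p under 0.05. Slc2a3 (1.46) and Slc16a3 (0.96) on day 2 are the filled points.

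When the change from day 0 was compared between the genotypes, 1 of 24 probe sets passed on day 2, with 5.4% of all probe sets passing. It was 1455898_x_at of Slc2a3, whose change was larger in D6-deficient skin by 1.42 ± 0.42 (SE), adjusted p = 0.048. The reference probe set of Slc2a3 gave 1.27 ± 0.41 (SE), which did not pass (adjusted p = 0.073), and Slc16a3 gave 1.09 ± 0.37 (SE), which did not pass either (adjusted p = 0.086). By reference probe set 0 of 10 genes passed in limma on any day, with backgrounds of 0.0194%, 0.608% and 0.025% on days 1, 4 and 6; unadjusted, 0, 2, 1 and 0 had p under 0.05 on days 1, 2, 4 and 6. Slc2a1 was the gene of day 4, where its change was smaller in D6-deficient skin (-0.58, 95% interval -1.13 to -0.03, adjusted p = 0.42).

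The rest of the pathway also moved in both directions. Of 21 other glycolytic enzymes tested, 6 rose and 5 fell in WT skin on day 4, and 7 rose and 7 fell in D6-deficient skin, with list medians of 0.20 and 0.05, beside 17.3% and 21.8% of all probe sets up and down in WT and 18.8% and 22.4% in D6-deficient skin. The leukocyte hexokinase Hk3 rose most, by 1.36 ± 0.21 (SE), adjusted p = 2e-05 in WT and 2.20 ± 0.21 (SE), adjusted p = 1.8e-08 in D6-deficient skin. Ldhb, the heart-type lactate dehydrogenase subunit, fell most, with changes of -1.80 ± 0.17 (SE), adjusted p = 2.3e-08 and -2.42 ± 0.17 (SE), adjusted p = 1.6e-10. Some muscle forms fell as well: on day 4 Pfkm changed by -1.41 and -1.77, Pgam2 by -0.94 and -1.03, and Eno3 by -0.87 and -1.24 in WT and D6-deficient skin. Other forms of these steps rose, with Pfkl at 0.79 and 1.09, Pgam1 at 1.06 and 0.88, and Eno1 at 0.92 and 0.99, each past the test in both genotypes, whereas Pfkp had not passed by its reference probe set. These 6 genes were chosen after their values were seen. All 7 muscle markers fell on the same day, and their part in the falls of the muscle forms was not tested. Gapdh, often used as a reference gene, changed by -0.37 and -0.53 on day 1 and -0.39 and -0.56 on day 6, all past the test, but by -0.05 and -0.03 on day 4, which did not pass.

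Among 12 other sugar and monocarboxylate carriers tested, 3 rose and 6 fell in WT skin on day 4, and 3 rose and 3 fell in D6-deficient skin. Of all probe sets 17.3% rose and 21.8% fell in WT skin that day, and 18.8% and 22.4% in D6-deficient skin, close to the D6-deficient counts. Slc5a1, the sodium-driven glucose carrier SGLT1, rose most in both, by 3.05 ± 0.33 (SE), adjusted p = 1.3e-07 and 2.01 ± 0.33 (SE), adjusted p = 2.9e-05, and Slc2a12 fell most, with changes of -2.31 ± 0.20 (SE), adjusted p = 4e-09 and -2.93 ± 0.20 (SE), adjusted p = 6.8e-11. Slc2a4, the insulin-regulated carrier of muscle and fat, fell, with changes of -1.46 and -1.33, in the samples where the muscle markers fell. Slc16a1, which like Slc16a3 carries lactate, rose by 0.79 and 1.12. In the list of 6 other regulators of fructose bisphosphates, 1 rose and 4 fell on day 4 in WT skin, as in D6-deficient skin. Pfkfb4, a relative of Pfkfb3, was the one that rose, by 1.34 ± 0.14 (SE), adjusted p = 7.7e-08 and 1.27 ± 0.14 (SE), adjusted p = 1.1e-07, and Fbp2, the muscle fructose bisphosphatase, fell most, with changes of -1.31 ± 0.35 (SE), adjusted p = 0.0044 and -2.06 ± 0.35 (SE), adjusted p = 4.2e-05.

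Of 17 genes of the HIF pathway, 7 rose and 2 fell in WT skin on day 4 and 5 rose and 3 fell in D6-deficient skin, beside the 17.3% and 21.8% of all probe sets that rose and fell in WT and the 18.8% and 22.4% in D6-deficient skin; the D6-deficient counts lie near that background. The largest rise was that of Egln3, an oxygen-sensing prolyl hydroxylase and itself a HIF target, in WT skin (2.64 ± 0.24 (SE), adjusted p = 1e-08) and that of Adm, the vasodilator adrenomedullin, in D6-deficient skin (3.28 ± 0.30 (SE), adjusted p = 5.1e-09). Car9, which encodes the HIF-induced carbonic anhydrase IX, rose by 2.15 and 2.16. The largest fall in both was that of Hif1an, the asparaginyl hydroxylase that restrains HIF (-0.55 ± 0.13 (SE), adjusted p = 0.0011 in WT and -0.98 ± 0.13 (SE), adjusted p = 1.1e-06 in D6-deficient skin). Not all known targets moved so: Vegfa gave -0.14 and -0.12 and Bnip3 -0.18 and -0.41 on day 4, and neither passed. Egln3 had risen in WT skin by day 1 (2.02), when Hif1a had not passed by its reference probe set (0.08, adjusted p = 0.7) but had risen by 1448183_a_at (0.75, adjusted p = 0.024).

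Genes of pyruvate use, which lead from glycolysis into the mitochondrion, mostly fell in WT skin. On day 4, 11 of 12 fell and 1 rose, when 21.8% of all probe sets fell and 17.3% rose, and the list median was -0.95. In D6-deficient skin 8 of 12 fell and 0 rose, beside 22.4% and 18.8% of all probe sets, with a median of -0.57. Pcx, which makes oxaloacetate from pyruvate, fell most in WT skin (-1.88 ± 0.31 (SE), adjusted p = 3.3e-05), and Pdk4, an inhibitory kinase of pyruvate dehydrogenase, in D6-deficient skin (-3.39 ± 0.50 (SE), adjusted p = 6.6e-06). Both carriers of pyruvate into the mitochondrion fell, Mpc1 (-0.91 and -0.60) and Mpc2 (-0.996 and -0.74), as did the pyruvate dehydrogenase subunits Pdha1 (-0.88 and -0.59) and Pdhb (-1.15 and -0.55). Pdk3 was the gene of the list that rose in WT skin, by 0.56 ± 0.13 (SE), adjusted p = 0.0015. In the pentose phosphate pathway, 3 of 7 genes fell in WT skin on day 4, beside 21.8% of all probe sets, Tkt furthest (-1.27 ± 0.15 (SE), adjusted p = 4e-07). In D6-deficient skin 3 of 7 rose, beside 18.8% of all probe sets, G6pdx furthest (0.70 ± 0.15 (SE), adjusted p = 0.00064). There 1 of 7 fell, Rpia (-0.31 ± 0.11 (SE), adjusted p = 0.031), beside 22.4% of all probe sets.

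**Figure D5:**
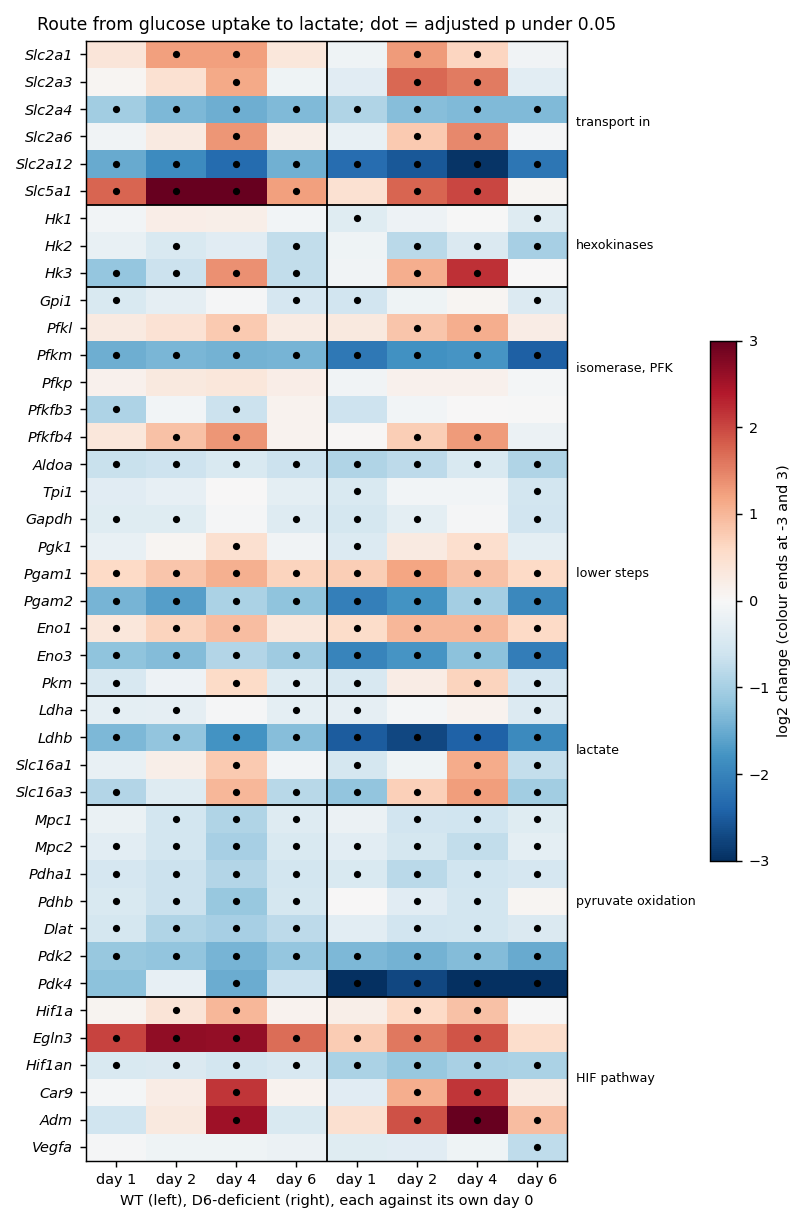
Log2 change against day 0 of the same genotype for member and related genes ordered from glucose uptake to lactate, pyruvate oxidation and the HIF pathway; red is higher, blue is lower, colours end at -3 and 3, and a dot marks an adjusted p under 0.05. Muscle forms such as Pfkm, Pgam2 and Eno3 are blue in every column, while Pgam1 is red in every column.

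Between the genotypes, few of these further genes passed. Hk3 and Slc2a6, a lysosomal carrier, were higher in D6-deficient skin on day 2, by 0.91 ± 0.21 (SE), adjusted p = 0.011 and 0.68 ± 0.18 (SE), adjusted p = 0.023. Pgam1 was higher by 0.37 (adjusted p = 0.021), and Ldhb and Pdha1 were lower, at -1.09 and -0.36 (adjusted p = 0.00031 and 0.044). On day 0 Tkt, G6pdx, Pdhb and Dlat were lower in D6-deficient skin, with differences of -0.93, -0.62, -0.66 and -0.56, so their later changes are measured from unequal starting levels. Eno3 was lower on day 6 (-1.02 ± 0.21 (SE), adjusted p = 0.045), when 1 of 7 muscle markers was lower too. The change from day 0 to day 2 differed for Hk3 (1.73), Adm (1.62), Ldhb (-1.55), Slc5a1 (-1.76), Tigar (-0.59), Hif1an (-0.70) and Pdk4 (-2.50), with adjusted p from 0.00044 to 0.043, and that to day 4 for Tkt (1.02 ± 0.21 (SE), adjusted p = 0.026). A positive value means a larger rise, or a smaller fall, in D6-deficient skin.

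Over the 10 group means, the 5 members that rose on day 4 had pairwise Pearson's r from 0.65 (Slc2a1 with Slc16a3) to 0.98 (Pgk1 with Slc16a3) over their 10 pairs. They were picked for sharing the day 4 rise, so that part of the likeness comes from the choice. The glucose carriers Slc2a1 and Slc2a3 gave 0.88, and Slc2a1 with Pgk1 gave 0.70. Hk2 went its own way, with r of -0.14 against Hif1a and -0.35 against Slc2a1. These points share the arrays and the same cell mixture, and so the values describe likeness and carry no test. The genes most like each member, among 6001 or 6002 candidates whose group means spanned at least 1 on the log2 scale, were as follows. Hif1a resembled Pram1, Skap2 and Vav1 (r = 0.99, 0.99 and 0.99), and Slc2a3 resembled Irg1, Nlrp3 and Spp1 (r = 0.99, 0.98 and 0.98). Slc2a1 was most like Tnf, Niacr1 and Slc7a11 (r = 0.96, 0.96 and 0.96), and Pgk1 like Klf7, Tnfaip2 and Pira2 (r = 0.98, 0.98 and 0.98). For Slc16a3 the nearest gene was Pkm2, the array's name for the pyruvate kinase of most tissues (r = 0.99), before Sykb and Arap3. Ldha resembled Ankrd33b, Cacng1 and 3000002C10Rik (r = 0.97, 0.96 and 0.96), Hk1 resembled 2610507B11Rik, Eif2c2 and Abcc3 (r = 0.92, 0.91 and 0.90), Hk2 resembled Slc25a33, AI317395 and Myod1 (r = 0.92, 0.89 and 0.88), and Pfkp resembled Il1rn, Nfkbid and Rab27a (r = 0.92, 0.91 and 0.91). Pfkfb3 had no close match, the nearest being Cirbp, Nr1d1 and Rasd1 (r = 0.82, 0.81 and 0.78).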

How the data were processed

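RNA from whole skin of 30 mice was hybridised to 30 Affymetrix Mouse430_2 arrays. The authors made the deposited values with RMA in GeneSpring GX, as linear intensities before any base-line transformation, and the submitters' processing notes also name RMA. The deposited intensity was taken to log2 here, with 64 control probe sets set aside and the dimmest 20% of probe sets (9008 by mean over all arrays) left out, so that 36029 of 45037 were tested. 1 mean was fitted per group over all arrays in limma 3.58.1 (R 4.3.3), with Benjamini-Hochberg adjustment per comparison. A gene passed at an adjusted p under 0.05, and the study's 3-fold threshold is given beside it. The test was tried on simulated data first. The p-values rest on the spread between mice within a group, pooled over the 10 groups and moderated across probe sets (20 residual and 24.1 total degrees of freedom). They do not rest on the 3 mice of a group alone, and 3 mice per group limit the precision. The smallest range for likeness was 1 on the log2 scale. Promoters and gene positions are RefSeq's, GRCm38.p6; no table used here gave a promoter for Slc2a3. The sample sheet deposited beside the matrix holds no values and served to match 1 column. Named besides the members were, from each pathway list, the largest rise and fall on day 4 and any gene past the test between genotypes; other pathway genes in the text were chosen after their values were seen. Members and lists were chosen with earlier results of these data known. Alternatives are given in the closing section. Figures were drawn with matplotlib 3.10.9. Same-numbered samples did not deviate together throughout, with r of -0.29 to 0.38 over 45 pairs and above 0.1 in 10 of them. No comparison had every pair above 0.1, so the samples were not paired.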

Additional observations from a re-analysis of the deposited data

Results flagged for a closer look

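Probe set 1455898_x_at of Slc2a3 was flagged because its change from day 0 to day 2 differed between the genotypes by a test of the difference itself. It was 1 of 24 member probe sets to pass, beside 5.4% of all probe sets. By reference probe set 0 of 10 genes passed. For probe set 1455898_x_at the D6-deficient change exceeded the WT change by 1.42 ± 0.42 on the log2 scale (SE, adjusted p = 0.048 in limma), with changes of 1.76 in D6-deficient and 0.34 in WT skin. The day 2 intensities were 7.68, 7.83 and 8.55 against 6.11, 6.42 and 7.19. The call lies close to the threshold: over the other settings tried, the adjusted p ran from 0.015 to 0.17 and the difference from 1.09 to 1.73. It kept the call without WT day 2 replicate 2 or without D6-deficient day 2 replicate 3 and lost it without any other single array of these groups. The brighter probe set of the gene, 1437052_s_at, gave 1.27 (adjusted p = 0.073).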

How the results depend on the processing

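Of 123 single calls of member probe sets, 7 held under every alternative. The 3-fold threshold lost 113, the methods' t-test lost 68 after Benjamini-Hochberg and 16 unadjusted. With these 3 alternatives set aside, 73 held under every filter, scaling, array set, block and left-out array and when probe sets of a gene were averaged. Without any single array 84 held. No scaling turned the direction of a called member probe set, nor of any of 405 calls of pathway genes; median centring lost 34 of these and moved the median of all probe sets by up to 0.0737. Averaging the probe sets of Pfkp reversed the calls of its single probe sets, to 0.00047 for 1437759_at in D6-deficient skin on day 1 and -0.037 for 1430634_a_at on day 6, because they disagree; averaged probe sets also passed 1 gene (Slc2a3) for the change to day 2 between genotypes.

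Counts of genes out of 10 moved as follows. At more than 3-fold, 0 passed against day 0 in WT skin on any day and in D6-deficient skin on days 1, 4 and 6, 1 in D6-deficient skin on day 2, 1 and 2 from day 4 to day 6 in WT and D6-deficient skin, and 0 between genotypes on day 2. Median centring gave 2 for WT day 2 and 2 for D6-deficient day 1. With the arrays of the contrast alone, 1 passed on WT days 1 and 2, 2 on D6-deficient day 6, 5 from day 4 to 6 in D6-deficient skin, and 1 between genotypes on day 2. The methods' t-test after Benjamini-Hochberg passed 1 on WT days 1 and 2, 0 on WT day 6, 1 on D6-deficient day 6, 3 from day 4 to 6 in either genotype and 0 between genotypes on day 2. Unadjusted, it passed 3 and 1 between genotypes on days 0 and 4, and 1, 4, 5 and 2 for the change compared between genotypes on days 1, 2, 4 and 6.

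Leaving out 1 array at a time, the count ran from 0 to 3 on WT day 1, 2 to 3 on WT day 2, 5 to 7 on WT day 4, 1 to 3 on WT day 6, 2 to 4 on D6-deficient day 1, 4 to 5 on D6-deficient day 2, 5 to 6 on D6-deficient day 4 and 3 to 5 on D6-deficient day 6. It ran from 5 to 6 and 7 to 9 between days 4 and 6, 1 to 3 between genotypes on day 2 and 0 to 2 for the change to day 2 compared between genotypes, and stayed at 0 in the other comparisons of genotypes. The lowest count for WT day 1 came without WT day 1 replicate 1, and 2 passed in the comparison of changes without WT day 2 replicate 2.

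With the replicate number as a block, 5 genes passed on WT day 4 in place of 6, and the counts of the other comparisons stayed as reported. Of 45 pairs, 18 correlated best with their own number, and no comparison had every r above 0.1. Hybridization controls separated 17 arrays with higher from 13 with lower levels, and with this set as a covariate no count moved. All 3 arrays of D6-deficient day 6 lay in the higher set, so no comparison of that group could be made within the lower set. The signal of 1 Slc2a3 probe set was too dim to test.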

Other observations

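On days 1 and 6 more of the related enzymes fell than rose. Of 21 other glycolytic enzymes, 9 fell and 2 rose in WT and 10 fell and 2 rose in D6-deficient skin on day 1, when 12.7% and 18.1% of all probe sets fell and 11.4% and 18.2% rose. On day 6, 9 fell and 2 rose in WT and 10 fell and 2 rose in D6-deficient skin, when 11.9% and 15.7% of all probe sets fell and 10.2% and 16% rose. Pgam1 rose on every day in both genotypes, by 0.59 in WT and 0.73 in D6-deficient skin on day 1 already. Aldoa, the aldolase of muscle and most other tissues, fell, with changes of -0.66 and -0.90 on day 1 and -0.65 and -0.90 on day 6. Pkm, the array's Pkm2, took the course of Slc16a3, at -0.48, -0.15, 0.58 and -0.38 in WT skin on days 1, 2, 4 and 6, of which the value of day 2 did not pass.

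Fbp1, the liver-type fructose bisphosphatase, was 4.25 and 4.95 above day 0 on days 1 and 6 in D6-deficient skin and 2.75 above it on day 6 in WT skin, while the WT value of day 1, 1.69, did not pass (adjusted p = 0.051). Slc16a7, a pyruvate and lactate carrier (MCT2), gave 1.25 and 1.38 on these days in D6-deficient skin but -0.88 on day 4. In WT skin it gave 0.54 (adjusted p = 0.062, not past the test) and 0.61 on days 1 and 6 and -1.01 on day 4. In the pentose phosphate pathway 5 of 7 genes rose and 1 fell on day 6 in D6-deficient mice, beside 16% and 15.7% of all probe sets, and 0 rose and 2 fell in WT mice, beside 10.2% and 11.9%. The test of the difference between these changes passed 0 of 7 in limma (adjusted p under 0.05; 4 at an unadjusted p under 0.05). For Tkt the D6-deficient value of day 6 was 0.55 and the WT value -0.49, measured from a day 0 level that was lower in D6-deficient skin. Fbp1, Slc16a7, Aldoa and Pkm were chosen after their values were seen.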
